A study of Mus musculus with 18 samples.

Results

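R1 and R2 are the pair farthest upstream among the enhancers that drive the mouse α-globin genes, and their contacts were compared with each other in wild-type (WT) erythroid cells. NG Capture-C reports, for a chosen DpnII restriction fragment called the viewpoint, how often it was ligated to every other fragment after crosslinking, and each unique ligation product counts as 1 interaction. The comparison used the 3 WT samples of the first experiment out of 18 samples in the series. Each sample gave 1 profile from R1 and 1 from R2, so the 6 profiles formed 3 pairs that share cells, digestion, ligation and sequencing. The cells were Ter119+ erythroid cells, selected with magnetic beads from spleens of adult mice on a C57BL/6J background. All mice had received phenylhydrazine, which destroys red cells and fills the spleen with their precursors, and no allele was edited. The labels do not give the number of animals behind a sample, and interaction counts hold no marker expression with which to check the cell type. Of 766 DpnII fragments between 32000000 and 32330000 on chromosome 11 (mm9), 739 were compared, since 14 lay within 1 kb of R1 or R2 and 13 carried no listed counts because they were, or adjoined, other captured fragments. The contact between R1 and R2 and those with the captured promoter fragments of Hba-a1 and Hba-a2 are therefore not part of the comparison.

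Enhancers act on promoters that can lie far away on the same chromosome, and in erythroid cells the α-globin enhancers and genes meet within a self-interacting domain. The contact frequency of any fragment falls steeply with linear distance, so that a viewpoint reports most of its contacts next to itself. Domains appear as stretches where this fall is slower, and boundaries as places where it is abrupt. R1 and R2 both lie in introns of Nprl3, which runs on the reverse strand and encodes a subunit of a complex that restrains mTOR signalling. The other enhancers of the cluster, R3, Rm and R4, lie between R2 and Hba-a1 in the order given by the study and were not placed on single fragments here.

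The R1 viewpoint fragment runs from 32145279 to 32146566 (1288 bp) and the R2 fragment from 32151062 to 32151881 (820 bp). Their centres are 5.55 kb apart, and everything from Hba-x to Sh3pxd2b is that much nearer to R2. Erythroid enhancers are bound by GATA1, whose motif was searched on both strands as GATAA or GATAG with an A or T before it and is set in capitals. The 300 bases with the most matches are shown for each fragment on the forward strand, R1 at chr11:32145662-32145961 and R2 at chr11:32151074-32151373 (mm9), because these fragments are the origins of the profiles.
R1: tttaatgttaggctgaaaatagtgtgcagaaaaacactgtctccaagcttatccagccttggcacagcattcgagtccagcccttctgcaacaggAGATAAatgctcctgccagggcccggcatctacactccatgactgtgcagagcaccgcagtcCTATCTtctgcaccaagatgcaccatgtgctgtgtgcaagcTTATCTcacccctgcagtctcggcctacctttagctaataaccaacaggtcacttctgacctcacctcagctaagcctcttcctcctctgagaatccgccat
R2: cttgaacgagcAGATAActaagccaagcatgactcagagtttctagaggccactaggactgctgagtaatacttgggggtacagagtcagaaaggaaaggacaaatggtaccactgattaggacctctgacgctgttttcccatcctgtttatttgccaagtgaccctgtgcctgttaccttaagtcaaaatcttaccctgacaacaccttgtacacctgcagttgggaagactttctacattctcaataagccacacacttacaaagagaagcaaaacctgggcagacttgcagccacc
The R1 stretch holds 3 matches, and 2.09% of 1100 consecutive stretches of that length in the window hold at least as many. The R2 stretch holds 1 match, and 37.7% of the stretches hold at least that many. The printed stretches were picked for the most matches in their fragment and the consecutive stretches were not, so both percentages are biased low. Over the whole fragments the numbers are 4 matches in R1 and 1 in R2, and 18.4% and 73.4% of stretches as long as each fragment hold at least as many. A match is a description of the letters and not a bound site.

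From R1 each sample had 104002 to 122476 interaction counts (median 107464), and from R2 123825 to 147105 (median 129625). On other chromosomes lay 23.2 to 27.6% of the R1 counts and 28.4 to 33.3% of the R2 counts. After removal of the zones around the viewpoints, 55866 to 63528 counts in cis remained from R1 and 68668 to 77564 from R2. Densities are given as counts per kb per 100,000 of these cis counts. A density is thus a share, and a higher density in one place goes with a lower one elsewhere in the same profile. Between samples of the same viewpoint the fragment counts gave chi-square values of 1.56 to 1.99 for each degree of freedom. Every pair of samples thus differed by more than sampling noise. The edgeR fits below take sample as block. Their p-values rest on how far the R1 minus R2 difference varied across the 3 samples, and not on the spread between samples of a viewpoint. The share of counts within 1 Mb was nearly the same for both viewpoints, at 65.7 to 69.0% from R1 and 65.5 to 69.0% from R2.

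Both profiles peaked at the viewpoints, had a second elevation over the adult α-globin genes and fell sharply behind them. The profiles crossed. R2 had the higher density from its own position to just upstream of Hba-a1, while R1 had the higher density on the upstream side and, beyond Hba-a1, on the downstream side as well. Of 66 bins of 5 kb in the window, R1 was higher in 23 and R2 in 6 at an adjusted p under 0.01. Over all 4023 bins tested on chromosome 11, R1 was higher in 0.572% and R2 in 0.149%, and each of these called bins lay in the window. The median log2 difference, R1 minus R2, was 0.44 over the bins of the window and 0.01 over all bins tested. Of the called bins 13 with R1 higher had centres from −63.4 to −3.4 kb relative to R1, and 10 had centres from 1.6 to 81.6 kb. The 6 bins with R2 higher were consecutive, with centres 6.6 to 31.6 kb downstream of R1. In each of the 29 called bins the 3 R1 values did not overlap with the 3 R2 values. The same held, called or not, for 36 bins of the window with R1 above and 6 with R2 above. Over all 4023 bins tested it held for 265 with R1 above and 236 with R2 above. When any 1 sample was left out, edgeR called 0 bins of the window, with an unadjusted p under 0.05 in 35 to 43 of them. DESeq2 called 22 to 27 bins of the window with the same samples left out, and all 29 bins kept their direction in each case.

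**Figure D1:**
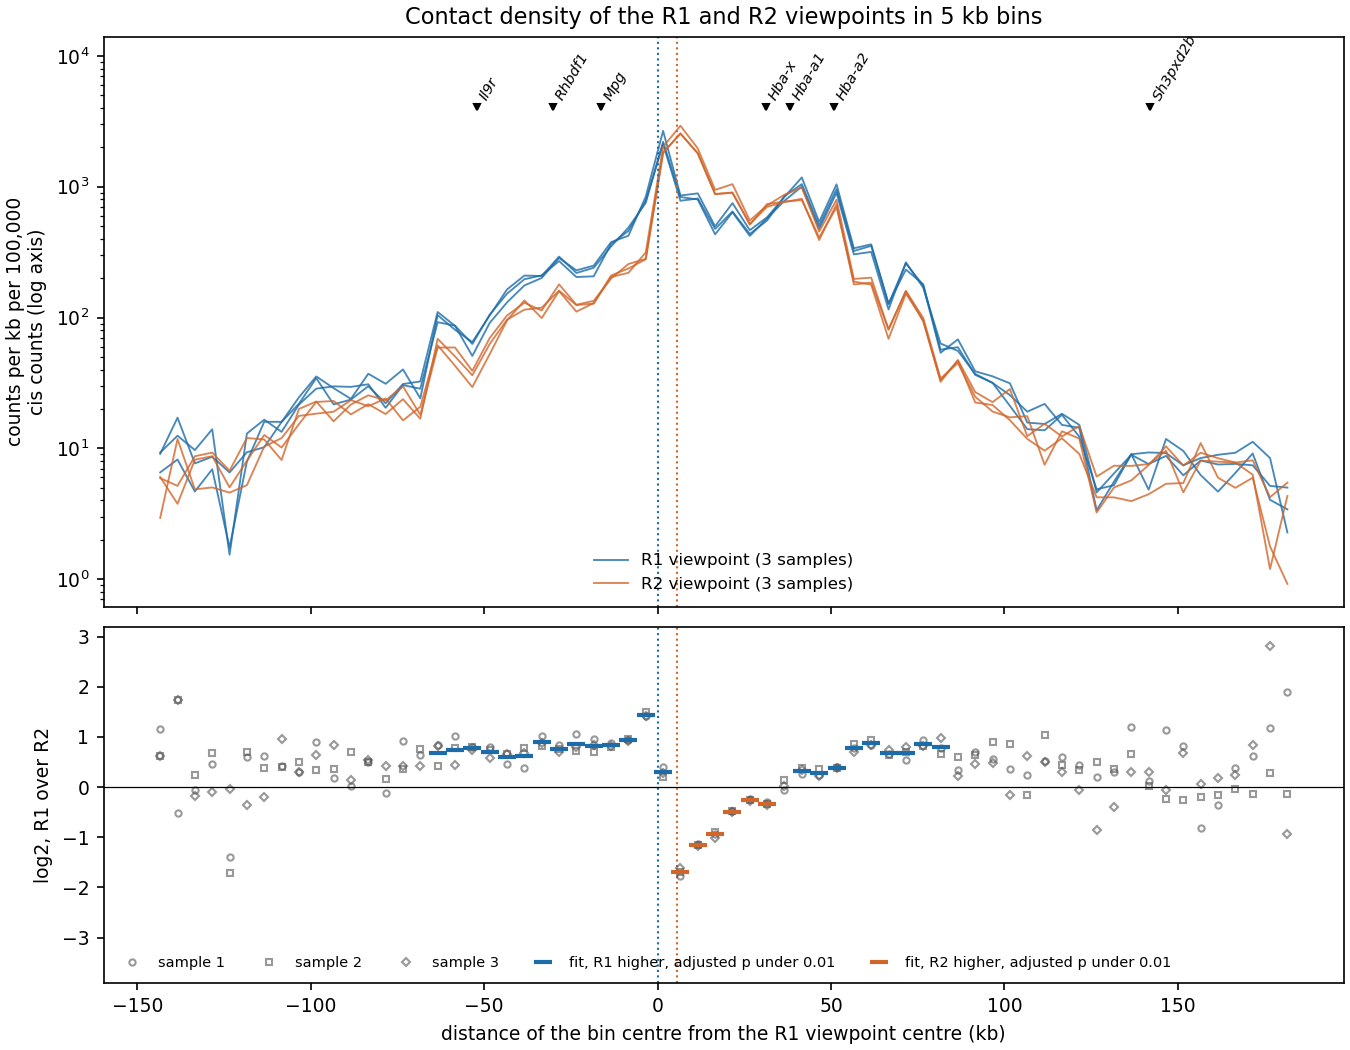
Upper panel, density of each of the 3 samples per 5 kb bin (counts per kb per 100,000 cis counts, log axis) against the distance of the bin centre from the R1 viewpoint; dotted lines mark R1 and R2 and triangles the centres of genes. Lower panel, log2 ratio of R1 over R2 in each sample, with the fitted value as a bar for the 23 bins with R1 higher and the 6 bins with R2 higher: the ratio turns negative at R2 and crosses 0 again at the adult α-globin genes.

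The strongest differences lay next to the viewpoints. Between HS-38, a CTCF-bound element at the upstream edge of the domain, and R1, the density in samples 1, 2 and 3 was 839.6, 783 and 753 from R1 and 314, 279 and 281 from R2. All R1 values exceeded all R2 values, a fitted 2.72-fold difference (log2 1.44, standard error 0.0383, adjusted p = 1.2e-25, edgeR's quasi-likelihood test). The adjusted p depended strongly on the samples used, at 0.000319, 7.16e-14 and 3.44e-12 without sample 1, 2 and 3. From R2 to the 5′ end of Nprl3 the order was turned, with 727, 672 and 649 from R1 and 1602, 1439.8 and 1441 from R2. Here R2 was 2.19-fold higher (log2 −1.13, standard error 0.0321, adjusted p = 4.38e-25). In the stretch between the viewpoints, which both reach at short range, R1 had 2673, 2119 and 2207 and R2 had 2018, 1835 and 1806. Its log2 difference of 0.30 (standard error 0.0336, adjusted p = 5.77e-10) rests on 5 fragments with 1.58 usable kb in all and stood at −0.20 with TMM factors and −0.23 with DESeq2 size factors.

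Further downstream the excess of R2 shrank. From the 5′ end of Nprl3 to Hba-x, the embryonic ζ-globin gene, the density was 578, 501 and 522 from R1 and 702, 639 and 651 from R2 (log2 −0.32, standard error 0.0320, adjusted p = 8.97e-11). Between Hba-x and Hba-a1, the first adult α-globin gene, it was 510.4, 503 and 479.7 from R1 and 603, 592 and 597 from R2 (log2 −0.26, standard error 0.0332, adjusted p = 8.5e-09). In both stretches the groups did not overlap. With an offset that lets contacts fall with 1 over the distance from the viewpoint, the differences of these stretches were 0.039 and −0.000309 on the log2 scale. That from R2 to the 5′ end of Nprl3 was −0.044 and that from HS-38 to R1 was 0.071. None of the 4 passed the threshold (adjusted p = 0.102 to 0.993). TMM factors gave −0.82, −0.77, −1.63 and 0.94 for the same 4 in this order. DESeq2 size factors gave −0.84, −0.79, −1.66 and 0.92.

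Over the adult α-globin genes R1 had the higher density per cis count, although R1 is the more distant of the pair. Between Hba-a1 and Hba-a2 the samples had 949.8, 884 and 834 from R1 against 816, 684 and 682 from R2, which do not overlap (log2 0.29, standard error 0.0311, adjusted p = 2.16e-10). Without sample as block, edgeR's adjusted p was 0.0136 and missed the threshold. From Hba-a2 to Hbq1a, a θ-globin gene, the samples had 1044, 948 and 909 against 775, 712 and 696 (log2 0.41, standard error 0.0337, adjusted p = 7.52e-13). With the 1 over distance offset both differences were larger, 0.49 and 0.57. The direction depends on the scale, because TMM factors or DESeq2 size factors, computed from these 15 intervals alone, moved the median log2 difference of the intervals from 0.43 to −0.071 or −0.093. On those scales the interval between Hba-a1 and Hba-a2 stood at −0.21 or −0.23 and that from Hba-a2 to Hbq1a at −0.095 or −0.12. TMM factors from all bins of chromosome 11 moved the median of the window only from 0.44 to 0.35, and 22 bins with R1 higher and 6 with R2 higher were then called.

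Ratios of densities within a profile are free of this scale. The density between Hba-a1 and Hba-a2 divided by that from the 5′ end of Nprl3 to Hba-x was 1.64, 1.76 and 1.60 from R1 and 1.16, 1.07 and 1.05 from R2. The ratio was above 1 in every profile and higher from R1 in every sample. Relative to the stretch behind the genes, from Hbq1a to HS+44, the density between Hba-a1 and Hba-a2 was 3.86 ± 0.205-fold from R1 and 5.48 ± 0.377-fold from R2 (SD, n = 3). The 3 pairs went the same way in both ratios, and the paired exact permutation test (two-sided, sign flips) gave p = 0.25, the smallest that 3 pairs allow. Altogether 12 such exact tests were made on shares and ratios, of which 11 were at this smallest p (Benjamini-Hochberg adjusted p = 0.273, exact permutation).

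**Figure D2:**
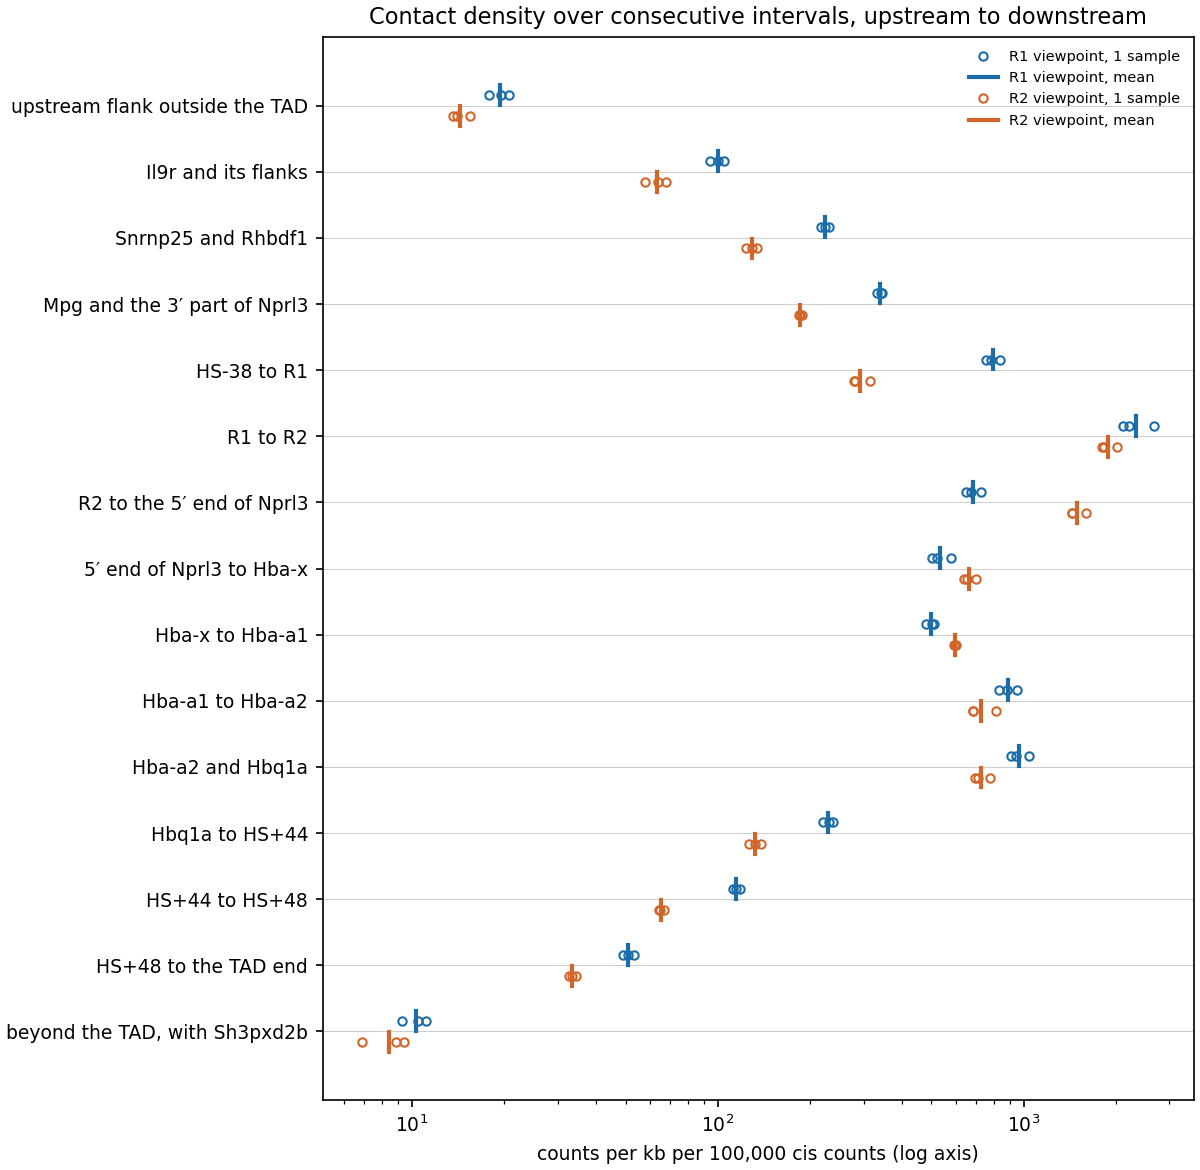
Density over the 15 consecutive intervals of the window, from upstream at the top to downstream (counts per kb per 100,000 cis counts, log axis). Circles are single samples and bars the mean of 3; the R2 values lie to the right of the R1 values in the 3 intervals from R2 to Hba-a1 and to the left in the other 12, with overlap only beyond the TAD; 5 of the 12 change direction with TMM factors from these intervals.

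The stretches upstream of the enhancers had the higher density from R1. Over the stretch of Mpg and the 3′ part of Nprl3 the samples had 346, 332 and 341 from R1 and 184, 186 and 189 from R2 (log2 0.86, standard error 0.0351, adjusted p = 9.61e-21). The stretch of Snrnp25 and Rhbdf1 showed nearly the same difference (log2 0.79, standard error 0.0333, adjusted p = 1.4e-20), with 224, 218 and 231 against 124, 129 and 135. Around Il9r the values were 94.6, 100.2 and 105 from R1 and 57.9, 63.9 and 67.7 from R2, a log2 difference of 0.66 (standard error 0.0382, adjusted p = 9.52e-17). These 3 differences remained past the threshold with the 1 over distance offset, at 0.35, 0.53 and 0.51. With TMM factors they were 0.36, 0.29 and 0.16, where the stretch around Il9r missed the threshold (adjusted p = 0.0108), and with DESeq2 size factors 0.34, 0.27 and 0.14. In the flank upstream of the domain the groups still did not overlap, with 17.9, 19.5 and 20.7 from R1 and 13.6, 14.0 and 15.5 from R2 (log2 0.43, standard error 0.0443, adjusted p = 1.04e-10), but this difference was −0.071 with TMM factors and −0.093 with DESeq2 size factors.

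The downstream flank had the higher density from R1 as well, and without a distance offset its difference was close to that over Snrnp25 and Rhbdf1. From Hbq1a to HS+44, the first of a pair of CTCF-bound sites behind the genes, R1 had 232, 238 and 220.5 and R2 had 138, 132 and 127 (log2 0.80, standard error 0.0333, adjusted p = 1.4e-20). The density there was 1.03 ± 0.0691 times that over Snrnp25 and Rhbdf1 from R1 and 1.03 ± 0.0872 times from R2 (SD, n = 3). The log2 ratio of these ratios was 0.000894 ± 0.0995 (SD, n = 3; exact permutation p = 1.0). With 3 pairs this test cannot show that the ratios were equal. The 1 over distance offset set the stretches apart, with log2 differences of 0.93 from Hbq1a to HS+44 and 0.53 over Snrnp25 and Rhbdf1. From HS+44 to HS+48 the samples had 118, 112 and 115 against 64.2, 66.9 and 64.6 (log2 0.82, standard error 0.0659, adjusted p = 5.39e-13). With TMM factors and DESeq2 size factors this difference fell to 0.31 and 0.29, and that from Hbq1a to HS+44 to 0.29 and 0.27. On the fragment over HS+44 (32220920 to 32221718) R1 had 134.4, 146 and 134.2 and R2 had 86.9, 102 and 91.1, and on the fragment over HS+48 (32224325 to 32227296) R1 had 33.1, 26.0 and 27.7 and R2 had 18.0, 21.7 and 19.6. R1 was higher in 3 of 3 samples on both fragments, but neither passed the threshold over all fragments (log2 0.57 and 0.54, adjusted p = 0.0672 and 0.225). From HS+48 to the end of the TAD R1 had 48.9, 53.3 and 51.0 and R2 had 33.3, 32.6 and 34.5 (log2 0.61, standard error 0.0579, adjusted p = 2.03e-11), a call that was lost with TMM factors (log2 0.11, adjusted p = 0.0988) and DESeq2 size factors (log2 0.088, adjusted p = 0.118). Beyond the TAD the groups overlapped, with 9.31, 10.5 and 11.1 from R1 and 6.89, 8.90 and 9.42 from R2 (log2 0.29, standard error 0.0558, adjusted p = 1.25e-05). This last difference missed the threshold without sample 3 (adjusted p = 0.026) and stood at −0.21 and −0.23 with TMM factors and DESeq2 size factors. Counted together, 12 of the 15 intervals (80% of those tested) had R1 higher and 3 (20%) had R2 higher. With the 1 over distance offset edgeR called 11 intervals with R1 higher and 0 with R2 higher, and 11 had an unadjusted p under 0.05. DESeq2 with its own size factors called 6 in each direction, and TMM factors gave 5 with R1 higher and 6 with R2 higher.

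By gene body, 8 of 11 genes (72.7% of those tested) had R1 higher and 2 (18.2%) had R2 higher. Nprl3, the host of both enhancers, had 711, 643 and 637 from R1 and 951, 865 and 864 from R2 (log2 −0.43, standard error 0.00780, adjusted p = 5.09e-24). Its body spans both viewpoints, with 75 of 100 fragments usable, and sums differences of opposite direction. These were log2 0.86 over Mpg and its 3′ part, 1.44 from HS-38 to R1 and −1.13 from R2 to its 5′ end. Hba-x had 556, 533 and 549.6 from R1 and 719.8, 694 and 749 from R2 (log2 −0.40, standard error 0.0746, adjusted p = 4.21e-05). In both genes the R2 values all exceeded the R1 values. Hba-x missed the threshold with the 1 over distance offset (log2 −0.12, adjusted p = 0.134) and without sample 2 (log2 −0.41, adjusted p = 0.0251). TMM factors and DESeq2 size factors from the 11 genes gave larger differences, −0.81 and −0.79 for Hba-x and −0.84 and −0.83 for Nprl3.

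Among the globin genes downstream, the differences were greater for the θ-globin genes than for the adult α-globin genes, which was not tested. Hbq1a had 1822, 1427 and 1453 from R1 and 1084, 994 and 1048 from R2 (log2 0.58, standard error 0.137, adjusted p = 0.00045), and Hbq1b had 1503, 1204 and 1214 against 1048, 969.8 and 944 (log2 0.40, standard error 0.0845, adjusted p = 0.000159). Hba-a1 had 1697, 1711 and 1686 against 1620.4, 1377 and 1466 (log2 0.19, standard error 0.0673, adjusted p = 0.00929), and Hba-a2 had 1689, 1688 and 1664 against 1622, 1391 and 1459.6 (log2 0.18, standard error 0.0674, adjusted p = 0.016). The call for Hba-a1 was lost without sample 2 or sample 3 (adjusted p = 0.315 and 0.0973), and the difference was −0.22 with TMM factors and −0.20 with DESeq2 size factors from the 11 genes. Hba-a2 turned as well on those scales, to −0.24 and −0.22. Hbq1b likewise stood at −0.014 with TMM factors and at 0.00401 with DESeq2. Hbq1a kept its direction at 0.17 and 0.19 but did not pass the threshold. The calls for Hbq1a and Hbq1b were also lost without sample 2 (adjusted p = 0.0735 and 0.0261), and that for Hbq1a without sample 3 (adjusted p = 0.0107).

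The adult genes are near-identical copies and the θ-globin genes are closely alike, so the values of each pair are uncertain and those of the adult genes cannot be told apart. The fragment from 32183838 to 32184112 in Hba-a1 has the same 275 bases as that from 32196655 to 32196929 in Hba-a2, and in R1 the former had 428, 459 and 448 counts and the latter 424, 450 and 442. Another pair of 593 bp differs at 3 bases and had 412, 504 and 388 counts against 412, 500 and 383 in R1. A pair of 332 bp in Hbq1b and Hbq1a differs at 5 bases and had 358, 308 and 293 against 338, 301 and 270. These 6 fragments hold all counts over Hba-a1, Hba-a2 and Hbq1a and part of those over Hbq1b. Without the 6 fragments all 15 intervals kept their direction and their call.

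Apart from Nprl3, the genes outside the globin cluster had R1 higher. Mpg, which encodes a DNA glycosylase that removes alkylated bases, had 331, 305 and 308 from R1 and 179, 177 and 178 from R2 (log2 0.82, standard error 0.0645, adjusted p = 4.66e-11). Mpg lies within the annotated body of Nprl3, so these genes share fragments. Rhbdf1, an inactive member of the rhomboid protease family, had a log2 difference of 0.82 (standard error 0.0551, adjusted p = 3.47e-12), Il9r, the interleukin-9 receptor, one of 0.76 (standard error 0.0894, adjusted p = 6.18e-08), and Snrnp25, a component of the minor spliceosome, one of 0.68 (standard error 0.104, adjusted p = 3.15e-06). Snrnp25 missed the threshold with TMM factors (log2 0.27, adjusted p = 0.0645), with DESeq2 size factors (log2 0.28, adjusted p = 0.0531) and without sample 2 (adjusted p = 0.0261), and Il9r with TMM factors (log2 0.34, adjusted p = 0.0103). Sh3pxd2b, an adaptor protein gene beyond the TAD, had only 8.81, 9.77 and 10.4 from R1 and 6.60, 8.43 and 8.77 from R2 (log2 0.29, standard error 0.0976, adjusted p = 0.00929). For Sh3pxd2b the difference stood at −0.13 and −0.11 with TMM factors and DESeq2 size factors. Its call was also lost without sample 2 or sample 3 (adjusted p = 0.145 and 0.0679) and with a zone of 5 kb (adjusted p = 0.0339). It was kept without sample 1 (adjusted p = 0.00952) and with the 1 over distance offset (adjusted p = 0.00196). Without sample 2 only 4 of the 11 genes were called, against 7 without sample 3 and 11 without sample 1, and the 10 genes called with all samples kept their direction in each case.

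**Figure D3:**
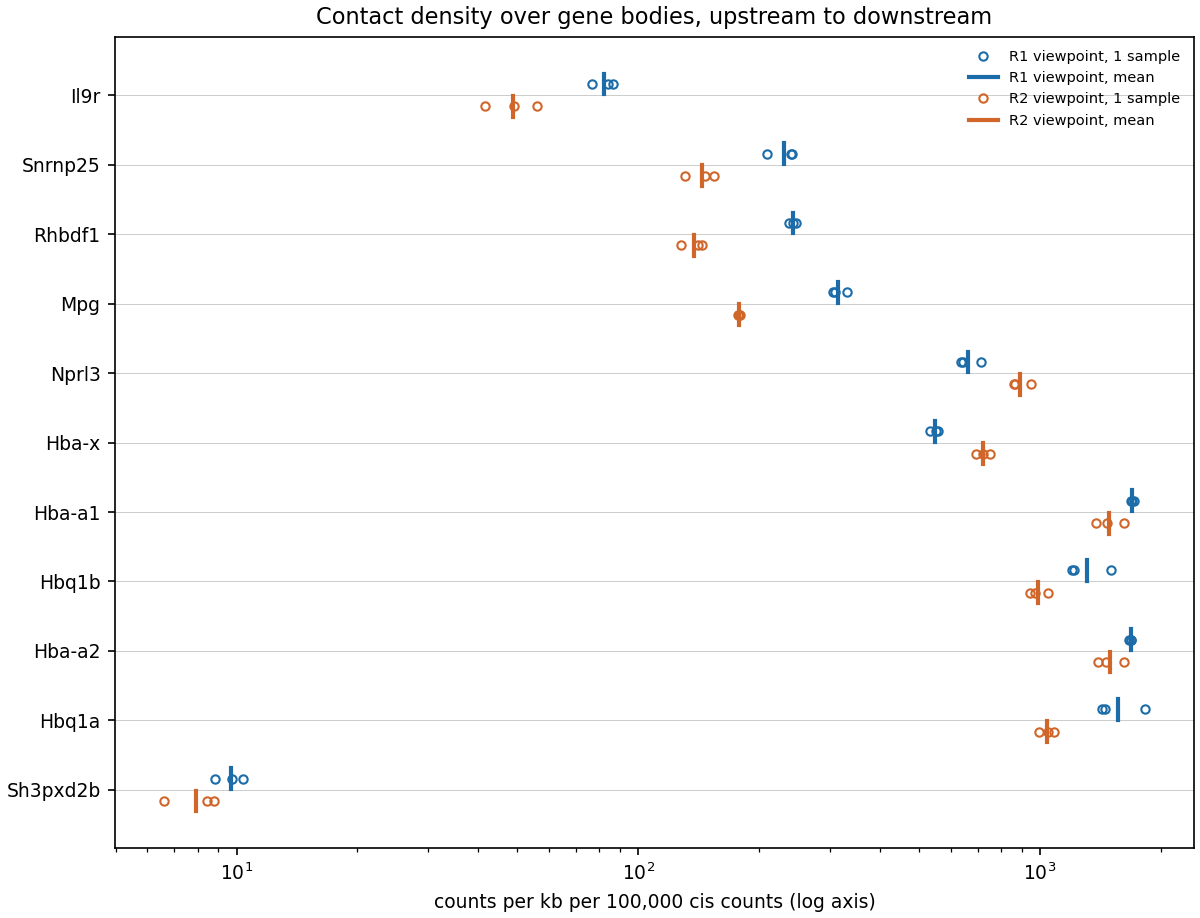
Density over the bodies of the 11 protein-coding genes of the window, ordered from upstream to downstream by their centres (counts per kb per 100,000 cis counts, log axis). Circles are single samples and bars the mean of 3; R2 is higher over Nprl3 and Hba-x, and R1 over the other genes, where Hba-a1, Hba-a2, Hbq1b and Sh3pxd2b change direction with TMM factors from the 11 genes.

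Single fragments gave the same order along the locus. Of 640 fragments tested in the window, R1 was higher on 33 and R2 on 29, and over all 2374 fragments tested on chromosome 11 these calls make up 1.39% and 1.22%. The median log2 difference was 0.53 over the fragments of the window and 0.16 over all fragments tested. The split depended on the scale, with 39 and 69 fragments with TMM factors and 15 and 56 with DESeq2. All 29 fragments with R2 higher lay between R2 and the 5′ end of Nprl3, where 37 fragments were tested. Of those with R1 higher, 20 lay from −35.2 to −2.81 kb relative to R1, including all 7 fragments tested between HS-38 and R1 and 12 of 22 over Mpg and the 3′ part of Nprl3. The other 13 lay downstream, 8 of them between Hbq1a and HS+44, and none of the fragments between the 5′ end of Nprl3 and Hba-a2 passed the threshold. When sample 1 or sample 2 was left out, edgeR called 0 fragments of the window, with an unadjusted p under 0.05 on 184 and 179, and without sample 3 it called 12. DESeq2 called 38 to 53 with the same samples left out, and all 62 fragments kept their direction in each case.

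The fragments with the smallest adjusted p in each direction flank the viewpoints. Shown are those of up to 300 bp, at chr11:32153292-32153556 and chr11:32153936-32154078 for R2 and at chr11:32141862-32142056 and chr11:32140708-32140852 for R1 (mm9, forward strand, GATA motif in capitals). The listed ends fall within the GATC site of DpnII, so each sequence starts with tc and ends with ga.
R2-higher fragment of 265 bp: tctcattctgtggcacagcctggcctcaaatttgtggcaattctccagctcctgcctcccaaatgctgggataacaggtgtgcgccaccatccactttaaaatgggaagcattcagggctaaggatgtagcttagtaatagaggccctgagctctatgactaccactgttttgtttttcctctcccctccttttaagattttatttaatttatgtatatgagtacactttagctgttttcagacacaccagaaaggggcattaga
R2-higher fragment of 143 bp: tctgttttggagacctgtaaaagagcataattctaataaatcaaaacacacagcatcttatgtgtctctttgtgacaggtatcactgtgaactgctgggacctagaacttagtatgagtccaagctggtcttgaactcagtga
R1-higher fragment of 195 bp: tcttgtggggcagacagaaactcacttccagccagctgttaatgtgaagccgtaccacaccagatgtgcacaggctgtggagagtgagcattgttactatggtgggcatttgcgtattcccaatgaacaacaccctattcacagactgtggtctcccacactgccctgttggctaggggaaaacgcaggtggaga
R1-higher fragment of 145 bp: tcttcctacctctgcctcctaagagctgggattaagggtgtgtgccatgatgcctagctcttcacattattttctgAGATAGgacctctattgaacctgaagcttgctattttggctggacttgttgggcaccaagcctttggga
The fragment of 145 bp holds 1 match to the GATA motif, and 20.5% of stretches of that length in the window hold at least 1, and the other 3 fragments hold none. On the fragment of 265 bp, 7.5 kb downstream of R1, the density was 1088, 1028 and 904 from R1 and 4419, 3625 and 3781 from R2 (log2 −1.96, standard error 0.0839, adjusted p = 2.53e-05). The fragment of 143 bp had 2028, 1882 and 1937 against 7846, 6491 and 6395 (log2 −1.82, standard error 0.0819, adjusted p = 2.53e-05). On the other side, the fragment of 195 bp had 3277, 2930.3 and 2932 from R1 and 1186, 1012 and 963 from R2 (log2 1.53, standard error 0.0833, adjusted p = 4.5e-05), and that of 145 bp had 2716, 2388 and 2785 against 1027, 951 and 803 (log2 1.50, standard error 0.117, adjusted p = 0.000334). Each of the 4 thus had R1 and R2 values that did not overlap, and with the 1 over distance offset none passed the threshold (log2 −0.023, −0.15, 0.27 and 0.44 in this order).

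**Figure D4:**
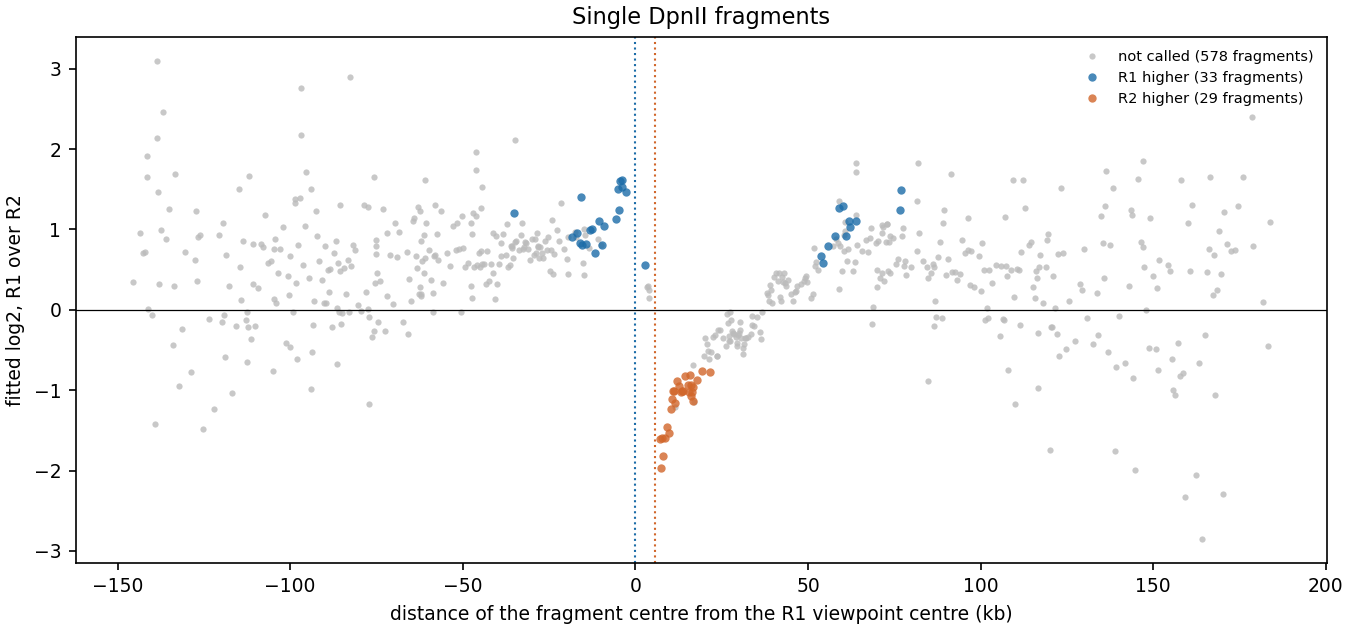
Fitted log2 ratio of R1 over R2 for the 640 DpnII fragments tested in the window, against the distance of the fragment centre from the R1 viewpoint (kb); dotted lines mark R1 and R2. The 29 fragments with R2 higher lie in one block next to R2 and the ratio climbs through 0 towards the adult α-globin genes, with the 33 fragments with R1 higher on both sides.

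Since every position lies at a different distance from each viewpoint, the profiles were also aligned on their own viewpoint. Of 63 bins of 5 kb of signed distance between −140 and 175 kb, R1 was higher in 16 and R2 in 6. Over all 4083 distance bins tested on chromosome 11, R1 was higher in 0.441% and R2 in 0.196%. Downstream, R2 was higher in the bins from 5 to 20 kb and from 30 to 35 kb, and R1 in those from 35 to 45 kb and in 8 of the bins from 50 to 95 kb. Upstream, R1 was higher in 6 bins between −65 and −5 kb. In the last bin before the viewpoint R2 had 1886 ± 115 and R1 837 ± 49.8 (SD, n = 3; log2 −1.17, adjusted p = 6.08e-08), and there the R2 profile holds only the stretch between the viewpoints. At 50 to 55 kb downstream, where R1 faces Hba-a2 and Hbq1a and R2 faces the flank behind them, the mean density was 967 ± 69.5 from R1 and 145 ± 9.09 from R2 (SD, n = 3; log2 2.74, adjusted p = 1.16e-10, edgeR's quasi-likelihood test). The bin from −70 to −65 kb was higher from R2 (25.1 ± 1.72 from R1 and 65.0 ± 6.37 from R2, log2 −1.37, adjusted p = 3.51e-05) and that from −65 to −60 kb was higher from R1 (113 ± 9.93 and 45.6 ± 6.79, log2 1.31, adjusted p = 2.56e-05). The higher value of both comparisons comes from nearly the same stretch just inside the upstream end of the TAD. Between 35 and 95 kb downstream, the log2 ratio over 12 bins ran from 0.04 to 0.87 (SD 0.267) when bins were matched by position. Matched by distance it ran from −0.17 to 2.74 (SD 0.869), so that the profiles were more alike by position there. Nearer to the viewpoints the order was turned. The log2 ratio ran from −1.70 to −0.26 in position bins with centres 6.6 to 26.6 kb downstream of R1. In distance bins from 5 to 30 kb it ran from −0.56 to −0.26. When 1 sample was left out, edgeR called 0 to 2 of these distance bins, with an unadjusted p under 0.05 in 36 to 41, and DESeq2 called 18 to 24. All 22 called bins kept their direction in each case.

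**Figure D5:**
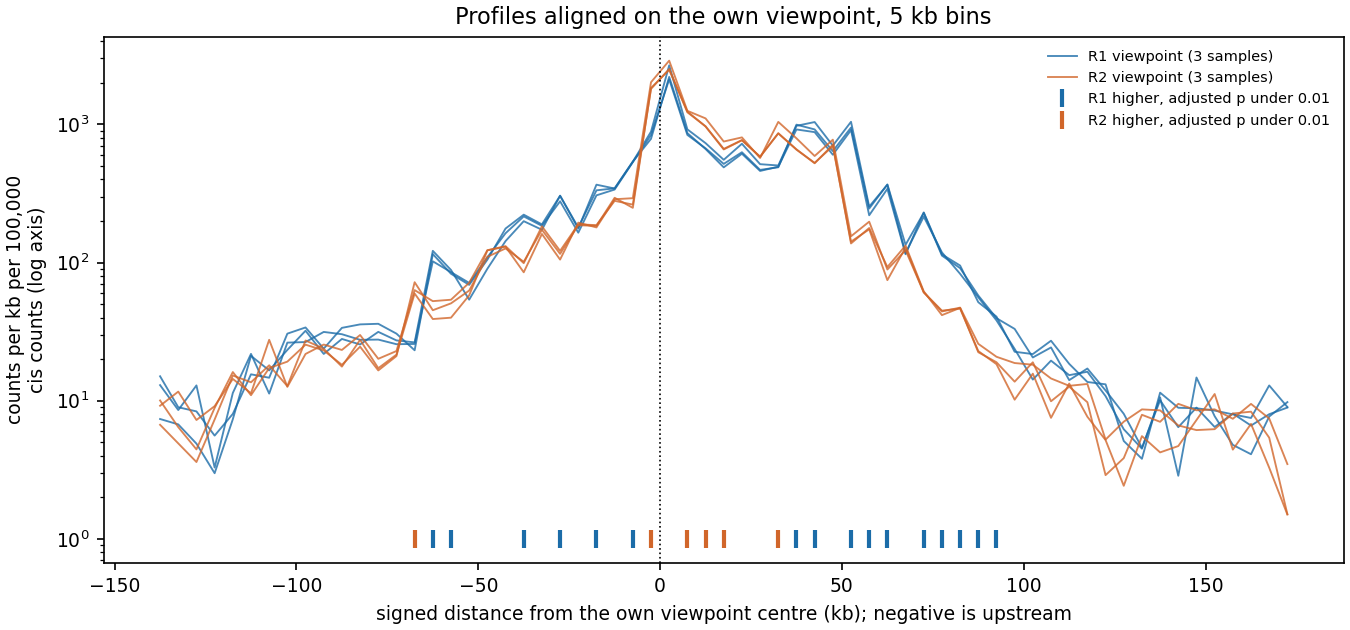
Density of each sample against the signed distance from its own viewpoint (kb, negative upstream) in 5 kb bins (counts per kb per 100,000 cis counts, log axis). Ticks at the bottom mark the 16 bins with R1 higher and the 6 with R2 higher; the fall behind the α-globin genes and the step on the upstream side come at shorter downstream and longer upstream distances from R2 than from R1.

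Up to 90 kb both viewpoints had more contact on the side of the α-globin genes than on the upstream side. At 10 to 30 kb from the own viewpoint, the downstream density was 2.05 ± 0.114 times the upstream one from R1 and 4.25 ± 0.259 times from R2 (SD, n = 3). The range of 30 to 60 kb holds the adult genes for both. There the ratio was 5.11 ± 0.642 from R1 and 4.90 ± 0.657 from R2. The groups overlapped, but R1 was higher within each sample (5.82 and 5.64, 4.91 and 4.66, 4.58 and 4.39). At 60 to 90 kb the ratio was 3.70 ± 0.349 from R1 and 1.99 ± 0.174 from R2, and at 90 to 120 kb it was 1.11 ± 0.0593 and 0.773 ± 0.110. The exact permutation p was 0.25 in each class.

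Within the TAD (32080071 to 32244878 in whole fragments, 164.8 kb), 68.7, 68.8 and 67.4% of the contacts from R1 and 82.6, 81.3 and 81.0% of those from R2 lay downstream of both viewpoints. The difference of −13.3 ± 0.757 percentage points (SD, n = 3 pairs; paired exact permutation p = 0.25) had the same sign in 3 of 3 samples. The nested sub-TAD with the enhancers and the α-globin genes (32135980 to 32203107, 67.1 kb) took 43.0, 39.3 and 38.2% of the cis contacts from R1 and 51.2, 46.0 and 46.0% from R2, a difference of −7.55 ± 0.771 percentage points (paired exact permutation p = 0.25), again lower from R1 in 3 of 3 samples. The TAD as a whole took 54.7 to 59.4% of the cis contacts from R1 and 55.6 to 60.6% from R2. Thus the viewpoints differed in how their contacts were spread within the TAD, while the share within it overlapped. The part downstream of both viewpoints begins next to R2 and lies 5.55 kb further from R1. The upstream edge of the sub-TAD is nearer to R1 than to R2. Both shares therefore depend on where the viewpoint lies, and a difference beyond the fall of contact with distance was not tested. The zones left out around the viewpoints held 22766 to 25105 counts from R1 and 18993 to 20505 from R2, and with zones of 5 kb the differences in the downstream and sub-TAD shares were −8.97 and −5.93 percentage points.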

How the data were processed

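Per the labels and the study's methods, the authors trimmed reads with Trim Galore, aligned in silico digested reads to mm9 with Bowtie, removed PCR duplicates and deposited, for each viewpoint, the raw counts of unique interactions on DpnII fragments. Of 63412 listed fragments of chromosome 11, 63412 matched a DpnII digest of NCBIM37. Fragments without counts were set to 0. Fragments within 1 kb of R1 or R2 were left out, as were captured fragments and those wholly within 1 kb of HS-38, on which 0 counts are listed. Genes are from GENCODE vM1, and a fragment belongs to the region that holds its midpoint. R1 minus R2 was tested in R 4.3.3 with edgeR 4.0.16 (quasi-likelihood test, sample as block, cis total as offset, Benjamini-Hochberg, threshold 0.01), over regions, and over bins and fragments of chromosome 11 with at least 10 counts over the 6 profiles. DESeq2 1.42.0, named in the study's methods, was an alternative. Fit and calls were tested on simulated data. Both profiles of a sample come from 1 library, which pairs them. The deviations of the samples from their means over the bins of the window correlated at 0.246, 0.131 and −0.025 within samples 1, 2 and 3, against −0.356 to 0.326 between different samples. Within-profile shares and ratios were compared by paired exact permutation. All protein-coding genes of the window are named. Of fragments, at most 5 per direction with the smallest adjusted p whose samples all went the same way could be named, and those over HS+44 and HS+48. The viewpoints and lists were chosen with earlier results of these data known. Alternatives were the scaling, the zone, the threshold, the count minimum, the block, each sample left out, the distance offset and the assignment of fragments. Leaving out copied fragments, fragments near HS-38 and HS-39, and samples in DESeq2 was added after seeing the data. Tables and plots were made in Python 3.11.15 (pandas 2.3.3, numpy 2.4.6, matplotlib 3.10.9, scipy 1.17.1).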

Additional observations from a re-analysis of the deposited data

How the results depend on the processing

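With DESeq2 size factors, the log2 difference turned to −0.093 in the upstream flank, −0.23 between R1 and R2, −0.23 from Hba-a1 to Hba-a2, −0.12 over Hba-a2 and Hbq1a and −0.23 beyond the TAD, and among genes to −0.20 for Hba-a1, −0.22 for Hba-a2 and −0.11 for Sh3pxd2b, with 5 genes called. TMM factors gave −0.071, −0.20, −0.21, −0.095 and −0.21 for the same intervals and −0.22, −0.24, −0.13 and −0.014 for Hba-a1, Hba-a2, Sh3pxd2b and Hbq1b, with 4 genes called. The 1 over distance offset turned the stretch from the 5′ end of Nprl3 to Hba-x to 0.039, the bin at 32150000 to 0.047 and the fragments at 32142086 and 32152948 to −0.11 and 0.51, and 14 fragments were called.

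Calls of single fragments depended on most settings: 62 became 108 with TMM factors, 94 with counts within 1 Mb as library size, 126 at a threshold of 0.05, 19 with a zone of 5 kb, 135 with at least 30 counts and 134 with at least 1. Without the replicate block, which pairs the profiles of a sample, 135 fragments were called, 12 intervals, 8 genes, 26 bins and 28 distance bins. The intervals not called then were R1 to R2, Hba-a1 to Hba-a2 and beyond the TAD (adjusted p = 0.0136, 0.0136 and 0.0430). With at least 30 counts 35 distance bins were called. Leaving out 1 sample gave 4 to 11 genes, 14 to 15 intervals, 0 bins of the window, 0 to 12 fragments and 0 to 2 distance bins with edgeR, and with DESeq2 38, 53 and 40 fragments without samples 1, 2 and 3. In these fits the bins, fragments and distance bins kept their direction. The downstream share differed by −8.97 percentage points with a zone of 5 kb, against −13.7 to −13.0 with 1 sample left out, and the sub-TAD share by −5.93, against −7.98 to −7.24. Of the values of single regions under the alternatives, 574 kept direction and call, 102 lost the call, 3 gained it and 21 turned. The cause was not tested.

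With 3 samples, no exact test of paired values could go below 0.25. At 10 to 30 counts per fragment, depth limits what single fragments can show, and a missed threshold there does not mean that R1 and R2 did not differ.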
